A study of Mus musculus with 16 samples.

Results

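The 38 genes described here belong to the secretory and stress machinery of the endoplasmic reticulum (ER). They were chosen by symbol from 24445 named genes, and all 38 were found in the table. By role, 17 are chaperones and foldases, 7 act in ER-associated degradation, 7 belong to the translocon and signal peptidase, and 7 are stress sensors or their outputs. RNA was sequenced from peritoneal B1b cells, an innate-like B cell subset isolated by cell sorting, and from whole aortas. All mice were ApoE-/-, a strain that develops atherosclerosis. The labels give each library as wt or cre, and the design text describes wild-type mice and mice that lack CD40 in B cells alone. There were 3 wt and 3 cre libraries of B1b cells, and 5 wt and 5 cre libraries of aorta. The Cre driver, age, sex and diet are not given in the labels, which also do not say that each library came from a separate animal. The p-values therefore measure the spread between these samples, which may be technical.

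Proteins that enter the secretory pathway cross the ER membrane through the Sec61 translocon, lose their signal peptide to signal peptidase, and fold with the help of chaperones and disulfide isomerases. Proteins that fail to fold are drawn back into the cytosol and degraded. Under folding load the sensors IRE1 (Ern1), PERK (Eif2ak3) and ATF6 start the unfolded protein response, which slows translation and induces chaperone and degradation genes. B cells that become antibody-secreting cells enlarge this system, and it is also active in lesional macrophages and smooth muscle cells of atherosclerotic arteries.

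Many of these genes share a promoter sequence, the ER stress response element. The element (ERSE) joins CCAAT and CCACG across 9 bases, and its variant ERSE-II joins ATTGG and CCACG across 1 base. Both strands were searched from 250 bases before to 50 after the transcription start in RefSeq promoters on GRCm38.p6, which held 31 of the 38 genes. ERSE was found in 9 of the 31 (29.0%) against 37 of all 27025 genes with a promoter there (0.137%), and ERSE-II in 2 against 12 genes (0.0444%). ERSE stood before Hspa5, Hsp90b1, Dnajc3, Creld2, Calr, Canx, Pdia6, Derl3 and Syvn1, and ERSE-II near the starts of Herpud1 and Dnajb11. The shorter core TGACGTGG, bound by XBP1 and ATF6, was in 1 of the 31, Txndc5, and in 0.714% of all genes. The ATF4 element, TGATG and AAT across 1 base, was in 0 of the 31 and in 1.08% of all genes. The ERSE-II of Dnajb11 began 7 bases after the start. The motifs overlap in letters, and a match describes the sequence without showing that a factor binds there.

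The following 7 windows are shown because their genes lay on different sides of the comparison of tissues given further on. Derl3, Syvn1 and Herpud1 were higher in wild-type B1b cells than in wild-type aorta, Hspa5, Dnajc3 and Pdia6 were lower, and Canx did not pass. Each is read on the strand of its gene, with the boxes of the element in capitals. The Derl3 window lies at chr10:75893217-75893285 (plus strand), that of Syvn1 at chr19:6046507-6046575 (plus) and that of Herpud1 at chr8:94386352-94386412 (plus). The Hspa5 window lies at chr2:34772000-34772068 (plus), that of Dnajc3 at chr14:118937802-118937870 (plus), that of Pdia6 at chr12:17266466-17266534 (plus) and that of Canx at chr11:50325775-50325843 (minus).
Derl3: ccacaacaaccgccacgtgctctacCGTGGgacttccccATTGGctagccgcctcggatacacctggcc
Syvn1: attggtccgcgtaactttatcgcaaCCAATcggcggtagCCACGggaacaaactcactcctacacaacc
Herpud1: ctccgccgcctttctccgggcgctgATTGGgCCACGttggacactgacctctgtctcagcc
Hspa5: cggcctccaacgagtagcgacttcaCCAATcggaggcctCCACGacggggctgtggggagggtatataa
Dnajc3: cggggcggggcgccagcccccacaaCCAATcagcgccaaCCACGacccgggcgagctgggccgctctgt
Pdia6: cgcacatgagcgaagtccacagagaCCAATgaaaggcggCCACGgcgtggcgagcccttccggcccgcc
Canx: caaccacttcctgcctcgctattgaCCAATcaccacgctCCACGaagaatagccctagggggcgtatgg
The element began 156 bases before the start of Derl3, 44 before Syvn1, 52 before Herpud1, 65 before Hspa5, 105 before Dnajc3, 98 before Pdia6 and 145 before Canx. Derl3 carries it in reverse and the other 6 in forward orientation. Of the 11 members with either element, 3 were higher (27.3%), 5 were lower (45.5%) and 3 did not pass between wild-type B1b cells and aorta, shares near the 35.4% and 40.4% of all genes.

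After 1 transcript was kept per gene, libraries held 6815829 to 9911226 counts in B1b cells and 1645926 to 7300894 in aortas, where wt replicate 5 and cre replicate 2 were under 2000000. Levels are CPM, the usual depth-scaled read count, on library sizes adjusted by the TMM method over all 16 libraries. Together the 38 genes took 0.778% to 0.970% of each library. All 10 B cell markers were higher in wild-type B1b cells than in aorta, with summed levels of 8938 to 10290 CPM over the B1b libraries and 132 to 302 CPM over the aortas. Macrophage markers summed to 268 to 495 CPM in the B1b libraries. Cd40, the targeted gene, stood at 39.2, 34.4 and 37.6 CPM in wt and 30.7, 29.5 and 38.4 CPM in cre B1b cells (log2 fold change -0.16, 95% interval -0.45 to 0.13). The groups overlapped, in aortas too, where Cd40 lay between 1.81 and 11.9 CPM. The labels do not say which part of the gene is lost, so this does not check the genotype.

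Within wild-type B1b cells the levels of the 38 genes were compared after division by transcript length. Pdia4, a disulfide isomerase, led with 409.9 ± 21.3 CPM per kb (SD, n = 3). Next were the chaperones Calr with 386 ± 10.2 and Hsp90b1 with 386 ± 22.3 CPM per kb, and these 3 did not differ beyond their spread. Hspa5, the BiP chaperone that holds the sensors inactive, followed with 229 ± 15.9 CPM per kb, and Pdia3, the isomerase that works with calreticulin, with 183 ± 1.59. Sec11c, a catalytic subunit of signal peptidase, was at 179 ± 8.70 CPM per kb, within the spread of Pdia3. The sensors were lower, at 60.4 ± 5.64 CPM per kb for Eif2ak3, 41.3 ± 1.34 for Atf6 and 3.43 ± 0.771 for Ern1. Trib3, a pseudokinase induced by ATF4 and CHOP, was lowest at 0.374 ± 0.0950 CPM per kb, from 5 to 7 reads a library. In wild-type aorta Calr led with 489 ± 57.0 CPM per kb, before Hsp90b1 with 403 ± 30.2 and Hspa5 with 390 ± 45.4 (SD, n = 5). Pdia4 ranked 12 there, at 89.8 ± 12.3 CPM per kb.

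**Figure D1:**
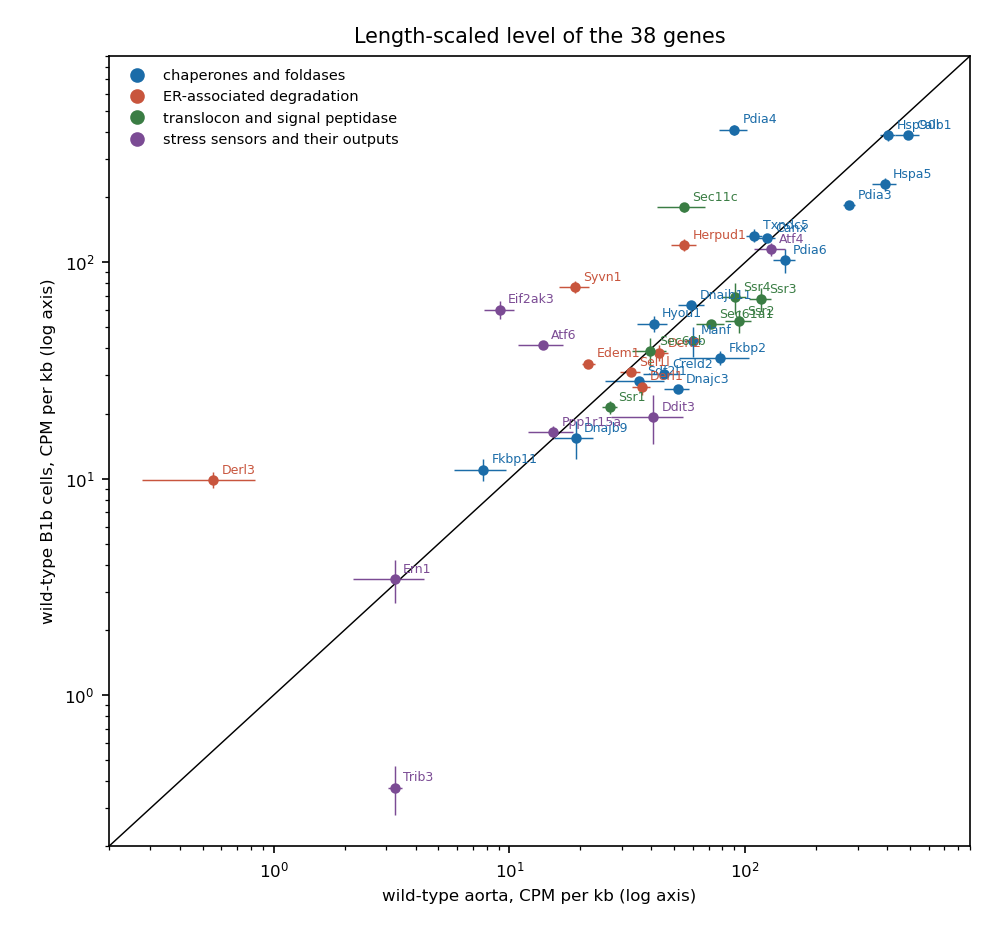
Mean level of each of the 38 genes in wild-type aorta (x axis, n = 5) and wild-type B1b cells (y axis, n = 3), in CPM per kb of transcript on log axes, with bars of 1 SD and colours by role. Derl3, Eif2ak3, Pdia4, Syvn1, Sec11c and Atf6 lie well above the line of equal level, and Trib3 lies furthest below it.

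The first comparison asked whether loss of CD40 in B cells goes with a change of this machinery in the B1b cells themselves. Of the 37 members tested, 1 passed, Ppp1r15a, which was lower in cre B1b cells. Trib3 was too low to test. Over all genes, 0.707% passed in either direction (edgeR quasi-likelihood, Benjamini-Hochberg adjusted p below 0.05 over 11732 genes). At an unadjusted p below 0.05, 5 members were higher (13.5%) and 2 lower (5.41%), beside 7.63% and 5.69% of all genes. The median log2 fold change was -0.04 over the members and 0.00 over all genes. The genotype groups did not overlap for 5 members higher in cre (13.5%) and 4 lower (10.8%). Among all 11732 genes this held for 1047 higher and 1056 lower.

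**Figure D2:**
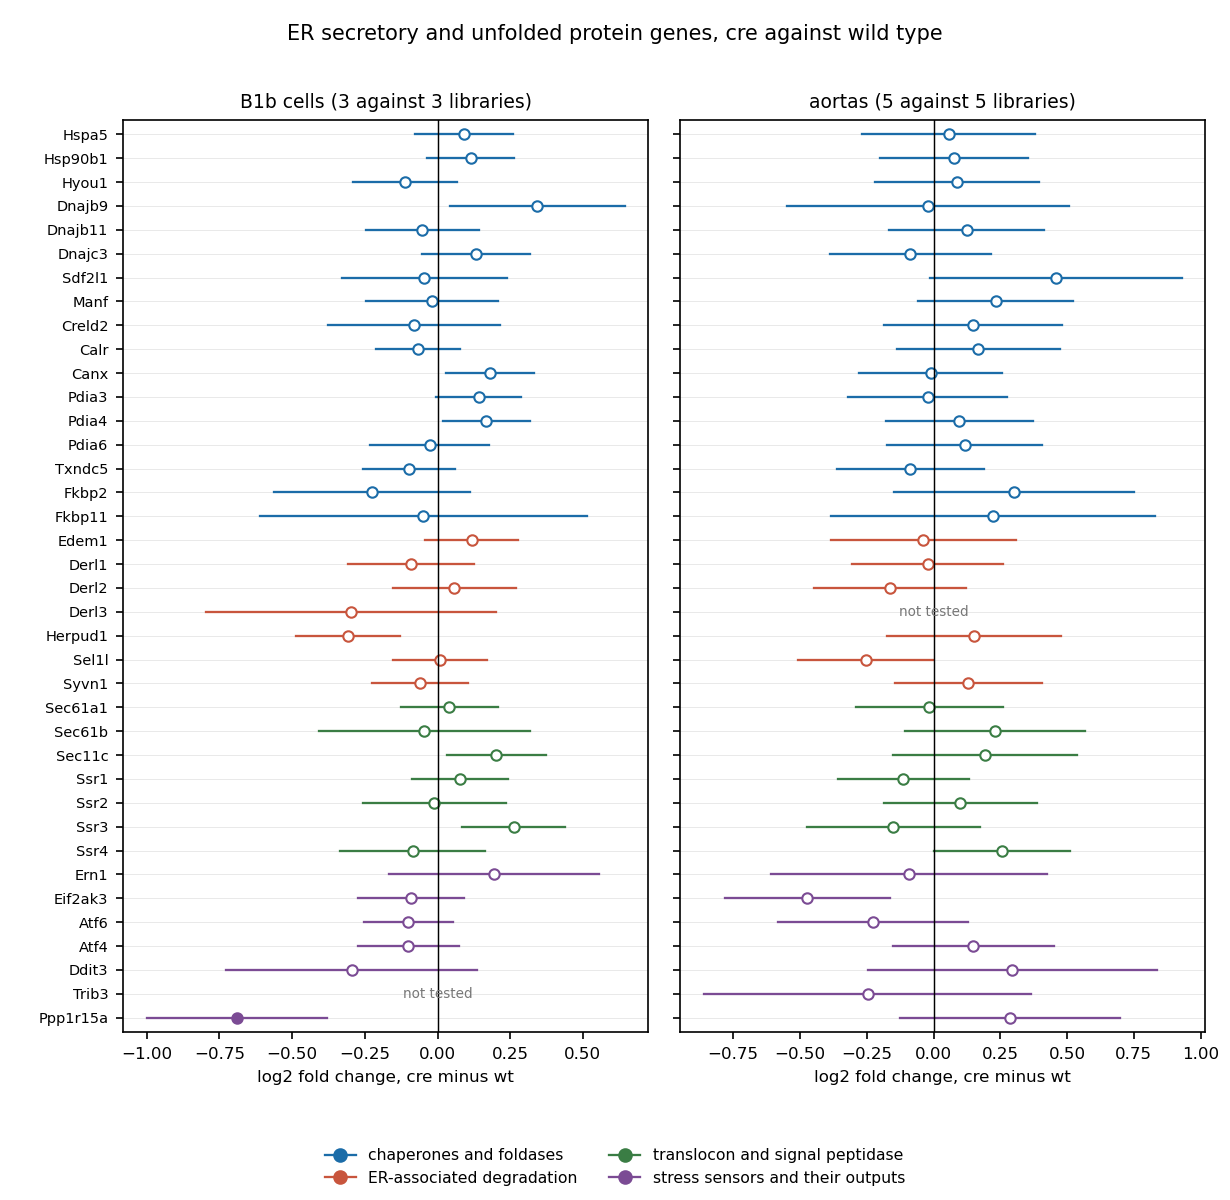
Log2 fold change (cre minus wt) of each member in B1b cells (left) and aortas (right) with its 95% interval, coloured by role; filled points passed at an adjusted p of 0.05. Ppp1r15a in B1b cells is the filled point, and the intervals of most other members cross 0.

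Among the sensors and their outputs, Ppp1r15a codes for GADD34, which recruits a phosphatase to eIF2 and so restores translation after stress. It lies at chr7:45522917-45526268 on GRCm38. Its level was 40.9, 35.4 and 38.6 CPM in wt and 27.5, 24.1 and 19.6 CPM in cre B1b cells. Every cre library lay below every wt library. The cre mean of 23.7 ± 3.93 CPM was below the wt mean of 38.3 ± 2.76 CPM (SD, n = 3 each), a fall to 0.620 of that level or -0.69 as log2 fold change with SE 0.15 (adjusted p = 0.0357, edgeR quasi-likelihood). Without any 1 of the 6 libraries the call ended (edgeR adjusted p from 0.0621 to 0.158), and in a fit of all 16 libraries it ended too (edgeR adjusted p = 0.493), with log2 fold changes from -0.78 to -0.55 when a library was left out.

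Genes of dissociation and immediate early stress were read beside Ppp1r15a. Of 13 such markers tested, 12 had fold changes below 0 and 3 fell, the transcription factor genes Fosb (log2 fold change -1.84) and Egr3 (-0.89) and the stress-inducible Gadd45b (-0.77). Jun was the 1 above 0, at 0.37 (edgeR adjusted p = 0.219). Fosb was at 16.1, 16.6 and 14.6 CPM in wt and 5.62, 3.44 and 4.07 CPM in cre B1b cells. The 15 listed genes summed to 448 to 532 CPM in wt and 390 to 418 CPM in cre, and none was at 0. The part of dissociation or activation in the difference of Ppp1r15a was not tested. Summed mitotic markers were 50.1 to 72.8 CPM in wt and 88.7 to 230 CPM in cre, highest in cre replicate 3, and the antibody joining chain gene Jchain rose by 1.78 on the log2 scale, 1 of 9 tested plasma cell markers to pass. Of 11 tested macrophage markers 1 passed, Csf1r, which was higher in cre (log2 fold change 0.99, edgeR adjusted p = 0.0357), and these markers summed to 268 to 415 CPM in wt and 488 to 495 CPM in cre. Summed B cell markers were 9712 to 10290 CPM in wt and 8938 to 9304 CPM in cre, without overlap. Of these 10 markers 1 passed, lower in cre, and 8 had fold changes below 0. The part of B cell content or of other cells in the difference of Ppp1r15a was not tested either.

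The sensors themselves did not pass in B1b cells. Eif2ak3, the gene of PERK, was at 250.5, 300.4 and 267 CPM in wt and 289, 234 and 242 CPM in cre, with a log2 fold change of -0.09 (95% interval -0.27 to 0.09). Atf6 was at 289, 300.0 and 309 CPM in wt and 296, 273 and 266 CPM in cre, at -0.10 (-0.25 to 0.05). The groups overlapped for both genes. With the lowest-count transcript of Eif2ak3, which held 3.70% of the reads of the one used, its log2 fold change was -0.61 (edgeR adjusted p = 0.395), and without wt replicate 2 it was -0.01. Ern1, the gene of IRE1, was at 18.6, 23.5 and 29.3 CPM in wt and 24.2, 31.4 and 25.9 CPM in cre, at 0.19 (-0.17 to 0.56). Its groups overlapped as well.

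The transcription factors of the PERK arm lay close by. Atf4, which is translated when eIF2 is phosphorylated, was at 213, 190 and 190 CPM in wt and 176, 185 and 189 CPM in cre, a log2 fold change of -0.10 (95% interval -0.27 to 0.07). The lowest wt library stood just above the highest cre library. Ddit3, the gene of the proapoptotic factor CHOP, was at 20.5, 18.8 and 12.2 CPM in wt and 12.9, 14.5 and 14.3 CPM in cre, at -0.30 (-0.73 to 0.14). The wt replicate 3 was below every cre library, so the groups overlapped.

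Of the degradation genes, none passed and 1 of 7 was lower at an unadjusted p below 0.05, beside 5.69% of all genes. That gene was Herpud1, which organises the degradation complex around the ubiquitin ligase HRD1. It was at 226, 251 and 227 CPM in wt and 213, 179.9 and 174 CPM in cre B1b cells. The groups did not overlap, and cre replicate 1 was closest to wt. The log2 fold change was -0.31 (SE 0.09, edgeR adjusted p = 0.109). Syvn1, which codes for HRD1, and Sel1l, its adaptor, had log2 fold changes of -0.06 and 0.01, and Derl3, a channel-like derlin, had -0.30 with an interval from -0.79 to 0.20. Edem1, Derl1 and Derl2 stood at 0.12, -0.09 and 0.06.

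Among the chaperones and foldases, 3 of 17 were higher at an unadjusted p below 0.05, beside 7.63% of all genes. None passed after adjustment. Dnajb9 codes for ERdj4, a J-domain co-chaperone of BiP that keeps IRE1 off. It was at 31.5, 35.9 and 46.3 CPM in wt and 44.2, 55.2 and 44.6 CPM in cre, a log2 fold change of 0.34 ± 0.14 (SE; adjusted p = 0.310, edgeR). 2 of the wt libraries were low and the other lay among the cre libraries. Canx, a lectin chaperone of the ER membrane, was at 538, 563 and 558 CPM in wt and 596, 623 and 652 CPM in cre. Here every cre library was above every wt library, with a log2 fold change of 0.18 ± 0.07 (SE; adjusted p = 0.281, edgeR). Pdia4 stood at 0.17 (SE 0.07). Hspa5 was at 561, 644 and 591 CPM in wt and 576, 644 and 682 CPM in cre, at 0.09 (95% interval -0.08 to 0.26). Its groups overlapped. The other 13 chaperones and foldases lay between -0.23 and 0.14 on the log2 scale.

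In the translocon group Ssr3, a subunit of the TRAP complex beside Sec61, was at 173, 207.9 and 220 CPM in wt and 235, 239 and 242 CPM in cre. The cre libraries were tightly grouped above all wt libraries. Its log2 fold change was 0.26 (SE 0.09, edgeR adjusted p = 0.169). Sec11c stood at 0.20 (SE 0.08, edgeR adjusted p = 0.282), again without overlap. The remaining 5 members, Sec61a1, Sec61b, Ssr1, Ssr2 and Ssr4, lay between -0.08 and 0.08 on the log2 scale, and none of the 7 passed.

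**Figure D3:**
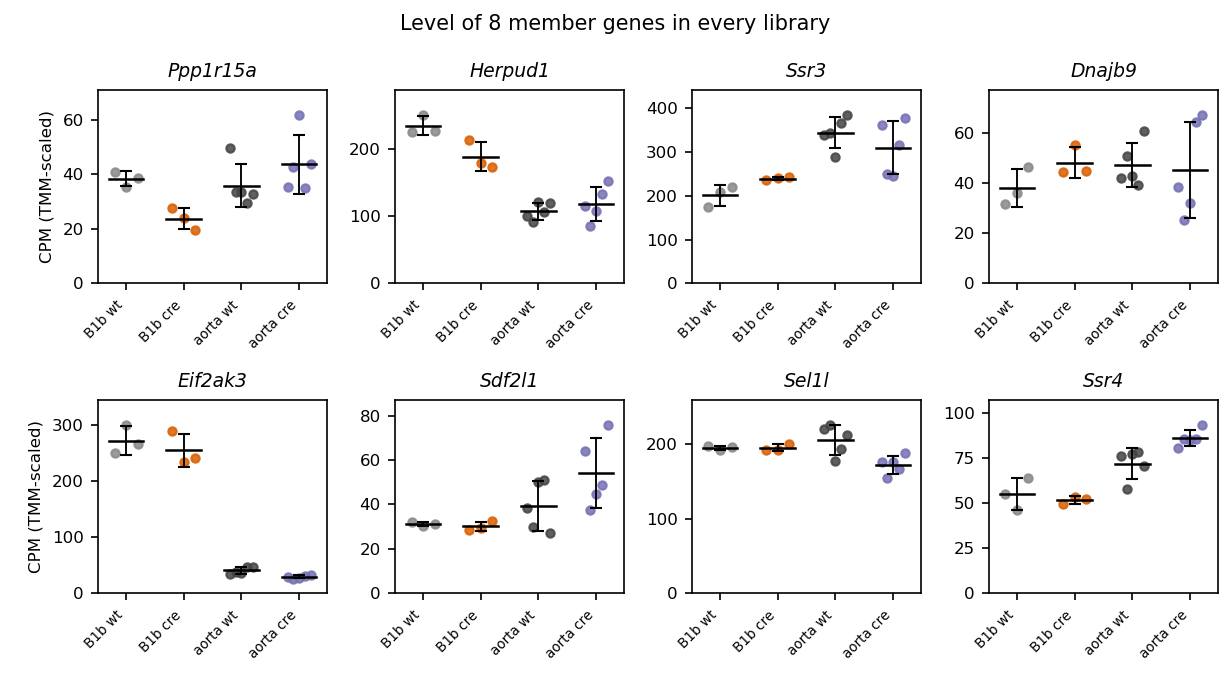
CPM of 8 members in every library (points), with the mean and 1 SD (bars), in B1b cells and aortas of each genotype. The cre B1b libraries of Ppp1r15a (19.6 to 27.5 CPM) lie below the wt ones (35.4 to 40.9 CPM), and the cre aortas of Eif2ak3 lie below the wt aortas.

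The second comparison asked the same of whole aortas. In a bulk sample fewer cells of a type and less RNA per cell cannot be told apart. Of 37 members tested, 0 passed, and DESeq2 also called 0. Over all genes 0.0150% passed (2 of 13364, edgeR). At an unadjusted p below 0.05, 1 member was higher and 2 were lower, against 6.87% and 5.72% of all genes. Derl3, at 0 to 8 reads a library, was too low to test. The median log2 fold change was 0.09 over the members and 0.00 over all genes. The genotype groups did not overlap for 1 member higher in cre (2.7%) and 1 lower (2.7%). Among all 13364 genes this held for 217 higher and 168 lower.

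Eif2ak3 had the smallest p of the members in aortas. It was at 34.9, 38.6, 37.1, 47.2 and 47.6 CPM in wt and 29.6, 26.5, 26.6, 31.8 and 32.4 CPM in cre. Each cre aorta was below each wt aorta. The log2 fold change was -0.47 (SE 0.14, edgeR adjusted p = 0.243), so it did not pass. The alternatives and fits without 1 library gave adjusted p-values from 0.0827 to 0.504. Eif2ak3 (chr6:70844484-70905241, GRCm38) shares 485 exon bases with the opposite-strand gene Gm43292, 1 of 13 members with such an overlap. Reads of such a pair cannot be told apart if counting ignored strand, which the labels leave unstated. The others share 549 bases (Sec61a1 with Gm44170), 415 (Hsp90b1 with 1810014B01Rik), 311 and 224 (Txndc5 with Gm31834 and Bmp6), 239 (Ssr2 with Gm10704), 231 (Derl2 with Mis12), 166 and 146 (Manf with 4930524O07Rik and Dcaf1), 91 (Syvn1 with Mrpl49), 68 (Ddit3 with Mars) and 50 (Pdia6 with Atp6v1c2). Dnajb9, Pdia3 and Ppp1r15a share 14, 18 and 12 bases.

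Among the other sensors and outputs, Atf6, Ern1, Atf4 and Ddit3 showed wide groups. Atf6 was at 85.3, 93.9, 77.6, 113 and 131 CPM in wt aortas and 88.6, 71.7, 71.2, 84.4 and 109 CPM in cre, a log2 fold change of -0.23 (95% interval -0.58 to 0.13). Ern1 was at 20.0, 28.2, 10.9, 29.4 and 24.8 CPM in wt and 17.1, 18.7, 23.7, 22.4 and 23.5 CPM in cre, at -0.09 (-0.61 to 0.43). Both genes overlapped between genotypes, and the low value of Ern1 in wt replicate 3 was below the cre range. Atf4 was at 248, 203, 262, 208 and 185 CPM in wt and 243, 297, 247, 224 and 219 CPM in cre, at 0.15 (-0.15 to 0.45). Ddit3 was at 51.1, 34.6, 45.6, 28.1 and 21.7 CPM in wt and 44.1, 66.2, 51.5, 34.9 and 31.0 CPM in cre, at 0.30 (-0.25 to 0.84). The groups of both genes overlapped. Trib3 was at 6.17 to 7.37 CPM in wt aortas and 3.80 to 8.49 CPM in cre, at -0.25 (-0.86 to 0.37), and its groups overlapped too.

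Sel1l and Ssr4 were the other members with an unadjusted p below 0.05 in aortas. Sel1l was at 220, 226, 177, 194 and 212 CPM in wt and 177, 155, 176, 167 and 188 CPM in cre, a log2 fold change of -0.25 ± 0.12 (SE; adjusted p = 0.393, edgeR). 1 wt aorta lay within the cre range. Ssr4, another TRAP subunit, was at 76.0, 58.0, 77.5, 78.3 and 70.8 CPM in wt and 81.0, 85.5, 84.9, 85.9 and 93.5 CPM in cre, at 0.26 (SE 0.12, edgeR adjusted p = 0.397). Every cre aorta was above every wt aorta. The other translocon members lay between -0.15 (Ssr3) and 0.23 (Sec61b), and the other tested degradation genes between -0.16 (Derl2) and 0.15 (Herpud1).

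The chaperones with the largest fold changes in aortas varied as much within a genotype. Sdf2l1, a partner of BiP in a chaperone complex, was at 38.3, 30.0, 50.2, 50.9 and 27.0 CPM in wt and 64.1, 37.3, 44.6, 48.8 and 75.8 CPM in cre, a log2 fold change of 0.46 ± 0.22 (SE; adjusted p = 0.411, edgeR). Fkbp2, a peptidyl-prolyl isomerase of the ER, was at 57.0, 40.4, 77.5, 52.3 and 32.8 CPM in wt and 77.3, 75.3, 62.9, 61.1 and 48.8 CPM in cre, at 0.30 (SE 0.21). Hspa5 was at 905, 968, 933, 1172 and 1119 CPM in wt and 1141, 867, 851, 1190.0 and 1251 CPM in cre, at 0.06 (95% interval -0.27 to 0.38). The groups of all 3 genes overlapped, and the other 14 chaperones and foldases lay between -0.09 and 0.23 on the log2 scale.

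Markers of tissue around the aorta and of dividing cells were also read in these groups, and the summed levels of every list overlapped between genotypes. All 10 heart muscle markers had fold changes above 0, with summed levels of 681 to 2912 CPM in wt and 824 to 7187 CPM in cre. All 6 tested skeletal muscle markers were above 0, with sums of 21.4 to 180 CPM in wt and 78.3 to 886 CPM in cre. All 8 fibroblast markers were below 0, with sums of 23210 to 31090 CPM in wt and 14840 to 25920 CPM in cre. Adipocyte markers summed to 671 to 4186 CPM in wt and 1363 to 4795 CPM in cre. Of 8 Schwann and nerve cell markers 7 were above 0, with sums of 345 to 476 CPM in wt and 249 to 1130 CPM in cre, highest in cre replicate 4. There the neuronal genes Snap25 and Prph, at log2 fold changes of 4.98 and 4.46, stood at 164 and 325 CPM. All 9 tested mitotic markers were below 0, with sums of 89.9 to 184 CPM in wt and 90.1 to 127 CPM in cre. At an unadjusted p below 0.05, 4 mitotic and 5 fibroblast markers were lower. At that level 6 heart muscle, 4 skeletal muscle, 2 Schwann and nerve cell and 0 adipocyte markers were higher. Over all genes 5.72% were lower and 6.87% higher. The median log2 fold change was 2.34 for heart muscle, 2.88 for skeletal muscle, -0.45 for fibroblast and -0.52 for mitotic markers. None of these lists had a marker past the threshold or at 0 in a whole group. Their part in the fold changes of Eif2ak3, Sel1l, Ssr4 and Sdf2l1 was not tested.

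Whether the genotype effect differed between B1b cells and aortas was tested as an interaction over all 16 libraries. Of the 38 members 0 passed, where 0.0199% of all genes did (edgeR), and DESeq2 called 0 as well. At an unadjusted p below 0.05, 0 members were higher and 2 were lower (5.26%), beside 746 higher and 932 lower among all 15091 genes. The 2 were Ppp1r15a at -0.98 (SE 0.28, edgeR adjusted p = 0.227) and Herpud1 at -0.47 (SE 0.22, edgeR adjusted p = 0.441). For Ppp1r15a the aortas were at 49.4, 33.5, 33.6, 29.4 and 32.8 CPM in wt and 35.2, 42.8, 61.7, 34.9 and 43.7 CPM in cre. These overlapped, with a log2 fold change of 0.29 (95% interval -0.13 to 0.70). The difference between tissues in the genotype effect thus missed the threshold for every member.

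The third comparison set wild-type B1b cells against wild-type aortas, to show where the members are high. Of the 38 genes, 9 were higher and 16 lower in B1b cells, and 13 did not pass. These were 23.7% and 42.1% of the members, beside 35.4% higher and 40.4% lower among all genes (edgeR, 14339 genes). The median log2 fold change was -0.18 over the members and -0.09 over all genes. The tissues also differ in how they were handled, sorted cells against frozen whole tissue, which cannot be told apart from the tissue. The same fit in the cre libraries, which share no sample with these, called 8 higher and 16 lower, with 33.8% and 40.2% of all genes. In both fits 8 members were higher and 13 lower, no member passed in opposite directions, and 10 passed in neither. Members that did not pass in both fits could differ in sign, as Ppp1r15a did (0.09 in wt and -0.82 in cre).

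**Figure D4:**
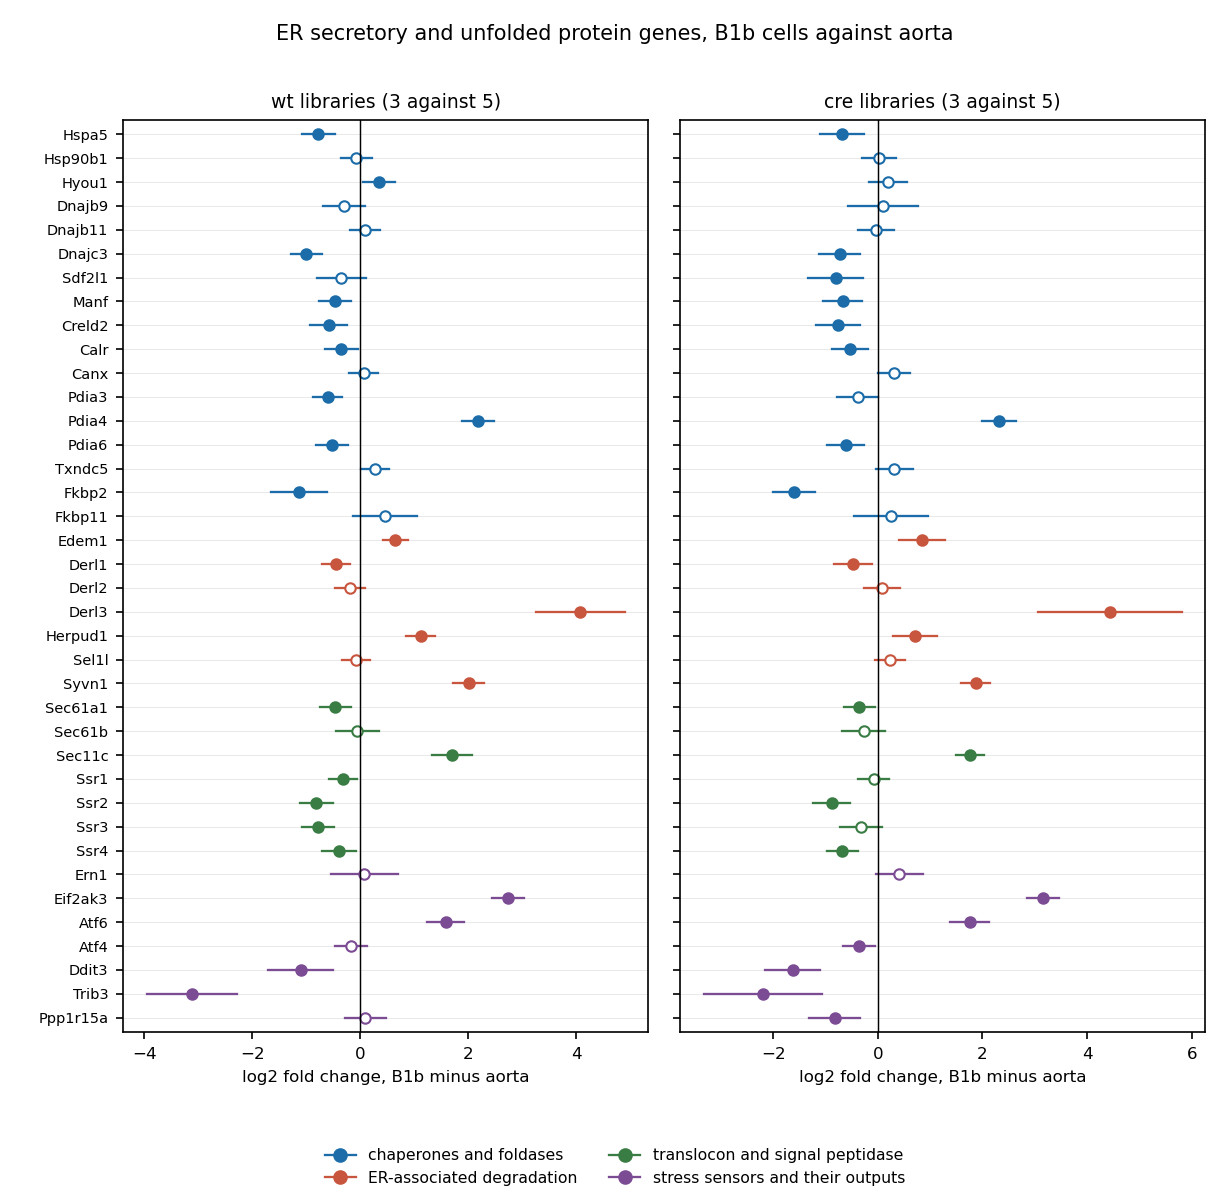
Log2 fold change (B1b minus aorta) of each member with its 95% interval in the wt libraries (left) and the cre libraries (right), 3 against 5 libraries each, coloured by role; filled points passed at an adjusted p of 0.05. Derl3, Eif2ak3, Pdia4, Syvn1, Sec11c and Atf6 lie far to the right and Trib3 far to the left in both.

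Of the 7 degradation genes, 4 were higher and 1 was lower in wild-type B1b cells, beside 35.4% and 40.4% of all genes. Derl3 was at 12.9, 14.3 and 12.0 CPM in wild-type B1b cells and 0.713, 0.882, 1.26, 0.284 and 0.529 CPM in wild-type aortas. The groups stood far apart, although the aortas held only 18 reads in all. The log2 fold change was 4.08 (SE 0.38, edgeR adjusted p = 6.52e-07). Syvn1 was at 284, 249 and 265 CPM in B1b cells and 76.8, 58.0, 73.8, 64.0 and 55.5 CPM in aortas, 4.02-fold higher (log2 2.01, SE 0.13, edgeR adjusted p = 2.55e-08). Herpud1 had a log2 fold change of 1.12, and Edem1, a mannosidase-like lectin that sends glycoproteins to degradation, one of 0.65. Derl1, a derlin of the same complex, was lower by a log2 fold change of -0.45, while Derl2 (-0.19) and Sel1l (-0.08) did not pass.

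Among the sensors, Eif2ak3 and Atf6 were higher in B1b cells and Ern1 did not pass. Eif2ak3 was at 250.5 to 300.4 CPM in B1b cells and 34.9 to 47.6 CPM in wild-type aortas. These groups were 6.63-fold apart (log2 2.73, SE 0.14, edgeR adjusted p = 1.84e-09). With its lowest-count transcript the log2 fold change was 3.56. Atf6 was 2.99-fold higher, from 77.6 to 131 CPM in aortas to 289 to 309 CPM in B1b cells (log2 1.58, SE 0.16, edgeR adjusted p = 1.51e-06). Ern1 had a log2 fold change of 0.08 (95% interval -0.54 to 0.69).

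Of the 4 outputs of the PERK arm, 2 were lower in wild-type B1b cells, beside 40.4% of all genes. Trib3 was at 0.939, 0.778 and 0.556 CPM in wild-type B1b cells and 7.37, 6.17, 6.63, 6.66 and 6.34 CPM in aortas. The B1b libraries held 18 reads of it in all and lay far below every aorta. Its log2 fold change was -3.12 (SE 0.38, edgeR adjusted p = 9.44e-06). Ddit3 had -1.10 (SE 0.28, edgeR adjusted p = 0.00295) with 12.2 to 20.5 CPM in B1b cells, below the 21.7 to 51.1 CPM of the aortas. Atf4 (-0.17) and Ppp1r15a (0.09) did not pass in wild type. In the cre libraries both were lower in B1b cells, Atf4 at -0.36 (edgeR adjusted p = 0.0332) and Ppp1r15a at -0.82 (edgeR adjusted p = 0.00521).

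Of the chaperones and foldases 2 of 17 were higher and 8 lower in wild-type B1b cells, beside 35.4% and 40.4% of all genes. Pdia4 was at 995, 927 and 1028 CPM in B1b cells and 188, 200.2, 196, 257 and 236 CPM in aortas. It was 4.55-fold higher with no overlap (log2 2.18, SE 0.14, edgeR adjusted p = 1.67e-08). Hyou1, an Hsp70-like chaperone, was the other, at 0.35, and its call ended in 5 of 8 fits without 1 library and in 5 of 9 other alternatives (adjusted p up to 0.296). Fkbp2 was at 26.2, 22.8 and 23.1 CPM in B1b cells, below all wild-type aortas (log2 -1.14, SE 0.24, edgeR adjusted p = 0.000822). Dnajc3, the co-chaperone P58IPK that inhibits PERK, was at 133, 135 and 132 CPM in B1b cells and 237, 261, 232, 295 and 303 CPM in aortas. Every aorta was above every B1b library (log2 -1.0, SE 0.13, edgeR adjusted p = 1.74e-05).

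The other 6 that were lower had smaller differences. The log2 fold change was -0.77 for Hspa5, -0.60 for Pdia3 and -0.53 for the isomerase Pdia6. It was -0.58 for Creld2, an ER stress-inducible secreted protein, -0.47 for Manf, an ER-resident neurotrophic factor, and -0.35 for Calr. Leaving out 1 library ended the call of Calr in 5 of 8 fits (edgeR adjusted p up to 0.127). In the cre libraries Sdf2l1 was lower as well (-0.81, edgeR adjusted p = 0.00881). The 7 members that did not pass in wild type were Hsp90b1, Dnajb9, Dnajb11, Sdf2l1, Canx, Txndc5 and Fkbp11. Hsp90b1, an Hsp90 paralogue of the ER needed for surface receptors, was at 1029, 1087 and 1154 CPM in B1b cells and 1029 to 1254 CPM in aortas, a log2 fold change of -0.07 (95% interval -0.35 to 0.21).

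In the translocon group 1 of 7 was higher and 5 were lower, beside 35.4% and 40.4% of all genes. Sec11c was at 153, 162 and 148 CPM in wild-type B1b cells and 52.8, 32.0, 59.8, 50.8 and 40.7 CPM in aortas. These groups were 3.23-fold apart (log2 1.69, SE 0.17, edgeR adjusted p = 1.44e-06). Ssr2, another TRAP subunit, was at 72.6, 59.8 and 59.1 CPM in B1b cells and 116, 100.3, 127, 121 and 94.1 CPM in aortas. No library overlapped (log2 -0.82, SE 0.14, edgeR adjusted p = 0.000166). The log2 fold change was -0.78 for Ssr3, -0.46 for Sec61a1, the channel subunit, -0.39 for Ssr4 and -0.32 for Ssr1. The calls of Ssr4 and Ssr1 ended in 4 and 3 of 8 fits without 1 library (edgeR adjusted p up to 0.165 and 0.115). The calls of Ssr1, Ssr3 and Pdia3 were not made in the cre libraries. Sec61b, the small channel subunit, did not pass (-0.05).

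**Figure D5:**
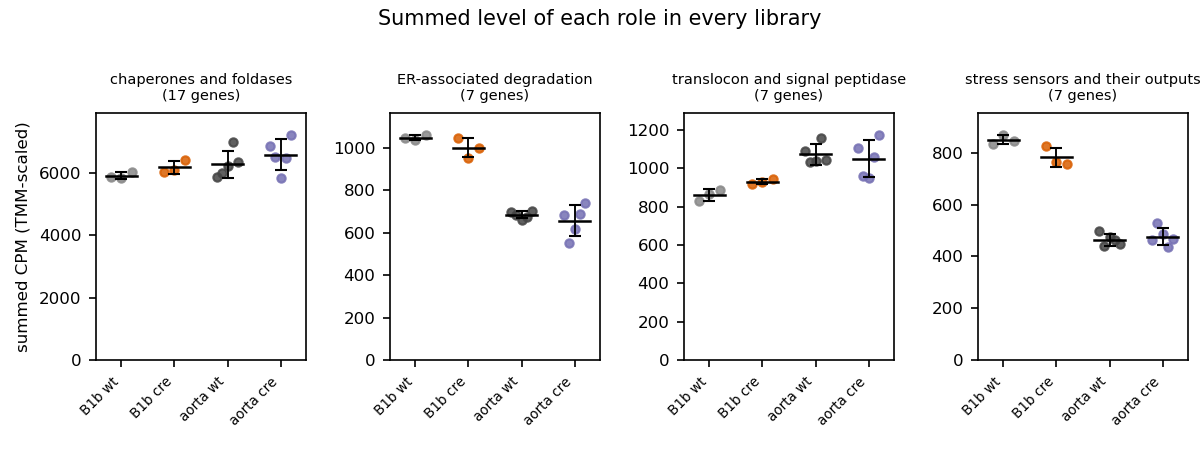
Summed CPM of the members of each role in every library (points), with the mean and 1 SD (bars). Degradation genes sum to 954 to 1060 CPM in B1b cells and 552 to 739 CPM in aortas, while translocon genes sum to 827 to 942 CPM in B1b cells and 949 to 1173 CPM in aortas.

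The summed levels of the roles were also read in every library. Degradation genes summed to 954 to 1060 CPM in the 6 B1b libraries and 552 to 739 CPM in the 10 aortas. The sensors and outputs summed to 758 to 869 CPM in B1b cells and 438 to 528 CPM in aortas. Neither sum overlapped between tissues. For the sensors and outputs the summed wild-type means were 849.8 CPM in B1b cells and 463.9 CPM in aortas. Of their genes, Eif2ak3 (272.6 against 41.1 CPM) and Atf6 (299.5 against 100.2 CPM) were higher in wild-type B1b cells. Ddit3 and Trib3 were lower there, and the other 3 did not pass. The 7 translocon members summed to 827 to 942 CPM in B1b cells, below the 949 to 1173 CPM of the aortas. The chaperones and foldases overlapped, at 5822 to 6403 CPM in B1b cells and 5840 to 7201 CPM in aortas.

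Other genes of the same pathways were read from 6 lists. They cover translocation, glycan transfer, folding, degradation, the stress response and ER-to-Golgi transport. Between genotypes 0 of 113 tested genes passed in B1b cells (edgeR), with 13 higher (11.5%) and 2 lower (1.77%) at an unadjusted p below 0.05, beside 7.63% and 5.69% of all genes. In aortas 0 of 122 passed, with 2 higher (1.64%) and 3 lower (2.46%) beside 6.87% and 5.72% of all genes. The lists were not tested against other genes. Closest was Eif2s1, the eIF2 alpha subunit that PERK phosphorylates, in B1b cells. It was at 56.9, 72.8 and 66.3 CPM in wt and 85.5, 93.0 and 84.6 CPM in cre. The cre libraries were all higher, with a log2 fold change of 0.43 ± 0.10 (SE; adjusted p = 0.0588, edgeR). Erp44, a thiol-linked retention factor, stood at 0.31 (edgeR adjusted p = 0.124), and Ero1a, the oxidase that charges the isomerases, at 0.41 (edgeR adjusted p = 0.145).

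In aortas the closest was Mbtps2, the site-2 protease that releases ATF6. It was at 22.8, 19.9, 21.8, 19.0 and 22.7 CPM in wt and 13.0, 7.23, 8.07, 13.4 and 14.8 CPM in cre aortas. All cre aortas were lower, with a log2 fold change of -0.87 ± 0.21 (SE; adjusted p = 0.174, edgeR). In B1b cells Mbtps2 had 0.35 (SE 0.13, edgeR adjusted p = 0.220). Vcp, the ATPase that extracts degradation substrates, stood at 0.37 in aortas (edgeR adjusted p = 0.265).

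Between wild-type B1b cells and aorta 30 of 123 listed genes were higher (24.4%) and 58 lower (47.2%), beside 35.4% and 40.4% of all genes. The share of lower genes ran from 23.8% in the degradation list to 72% in the ER-to-Golgi list, and whether any list differed from other genes was not tested. Of the ER-to-Golgi genes 5 of 25 were higher and 18 lower in B1b cells, led by the retrieval receptor Kdelr3 at a log2 fold change of -8.17. Of the other folding genes 6 of 22 were higher and 14 lower, among them Fkbp10 and Fkbp14, foldases of collagen, at -10.52 and -6.83. Of the other stress response genes 5 of 26 were higher and 13 lower, with Nupr1, a stress-inducible nuclear protein, at -9.11 and Creb3l1, an ER-bound transcription factor of collagen-secreting cells, at -5.13. These 5 leading genes followed the rule of smallest p in a list. Of the other degradation genes 6 of 21 were higher and 5 lower, and translocon genes had 4 of 15 either way. Glycan transfer genes had 4 of 14 either way, with the catalytic subunit Stt3b 2.15 higher on the log2 scale. The aortas held 8866 to 23060 CPM of summed smooth muscle markers and 14840 to 31090 CPM of fibroblast markers, where the B1b libraries held at most 20.9 and 24.1 CPM. The part of these cell types in the lower values of B1b cells was not tested.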

How the data were processed

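RNA sequencing was analysed for 16 libraries, grouped by the genotype and cell type labels. Per the labels' protocols, B1b cells were sorted by surface markers from peritoneal lavage, aortas were snap frozen, RNA was purified from TRIzol lysates and libraries were made with a KAPA mRNA kit. CASAVA 1.8.2, STAR 2.5.2b and mm10 appear in the submitters' processing notes. For the counter, the annotation and strandedness, the step is not given in the sources used here. Raw counts per RefSeq transcript were deposited by the authors as whole numbers in 1 column per sample, and 0 columns were left without a sample. Of 35745 transcripts, 35440 took a RefSeq gene name, 188 a GENCODE name and 117 none. Rows of 1 gene share reads, so the row of highest total was kept (24562 entries). For 12 members with several rows, 10 had a lowest row of at least 90% of the highest, and Dnajb11 (64.7%) and Eif2ak3 (3.70%) did not. Exons shared with other genes were read from GENCODE.

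Counts were tested with edgeR 4.0.16 in R 4.3.3 (TMM, filterByExpr, robust quasi-likelihood F test) over all genes of each comparison, adjusted by the Benjamini-Hochberg method with a threshold of 0.05. Intervals are 95% intervals. The printed CPM use TMM factors over all 16 libraries, while each fit uses its own. Alternatives were other scalings, DESeq2 1.42.0, limma-voom (limma 3.58.1), no filter, the lowest transcript row, 1 fit of all libraries, low-depth libraries left out and each library left out. The scripts were tested on simulated data. The members and gene lists were chosen with earlier results of these data known. Values per library are given for members past the threshold, the 4 of smallest p and the 3 of largest fold change in each genotype comparison, 6 fixed genes of the stress response, and the 5 largest folds each way between tissues. From each pathway list up to 2 genes of smallest p were eligible. Any other gene was named with its values already in view. Replicate numbers are accession order and pair nothing. Some genes are not reported here.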

Additional observations from a re-analysis of the deposited data

Results flagged for a closer look

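In 76 groups of 5 aortas (38 genes in each genotype), 5 had a library far from the other 4 by the gap to its nearest neighbour relative to the whole range, where chance flags about 1 in 20 groups. Canx stood at 445.7 CPM in cre replicate 3, below the 528.6 to 558.2 CPM of the other cre aortas. Pdia4 stood at 268.1 CPM in cre replicate 5, above 214.1 to 227.4 CPM. Fkbp11, a peptidyl-prolyl isomerase, stood at 3.17 CPM in wt replicate 5, below 5.95 to 6.47 CPM, from 6 reads in a library of low depth. Ssr1 stood at 216.4 CPM in wt replicate 3, below 253.2 to 264.4 CPM. Ppp1r15a stood at 49.4 CPM in wt replicate 1, above 29.4 to 33.6 CPM. The groups of 3 B1b libraries are too small for this check.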

How the results depend on the processing

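The single member called in B1b cells, Ppp1r15a, was also called with both other scalings, DESeq2, limma-voom and no filter; it has 1 transcript row, so the lowest-row alternative does not bear on it. The count was 0 in 1 fit of all 16 libraries and ran from 0 to 0 over 6 fits with 1 library removed each. In aortas and for the difference between tissues in the genotype effect, the count was 0 in every alternative run. Between wild-type tissues it ran from 21 to 27 when a library was left out and from 24 to 27 otherwise, against 25. Scaling moved the median of all genes there from -0.09 to -0.19 on the log2 scale. Over all genes, 83 passed in B1b cells, 196 with DESeq2, 327 without a filter and 0 in the fit of 16 libraries. The corresponding count in aortas was 2, and 204 with DESeq2, 47 in the fit of 16 libraries and 92 without the aortas under 2000000 counts. For the difference between tissues in the genotype effect it was 3, and 173 with DESeq2. No member called between genotypes or between wild-type tissues changed direction. Sign changes without a call were counted only for the members followed under the alternatives. They came in 5 of 189 gene and setting pairs in aortas, 0 of 143 in B1b cells and 0 of 425 between tissues. The 25 genes followed between tissues were all called in wild type, so uncalled members were not checked there. No paired analysis was possible because the labels carry no replicate numbers. The cause of these changes was not tested. Low read counts limit the precision of Derl3 in aortas (0 to 8 reads a library) and of Trib3 in B1b cells (5 to 14).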
